A study of Mus musculus with 16 samples.

Results

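The transcripts described here are those of 10 chaperone genes that heat shock factors are known to drive: Hsph1, Dnajb1, Hspa8, Hsp90aa1, Hsp90ab1, Hspd1, Hspe1, Dnaja1, Chordc1 and Ahsa1. They were taken as a named list of cytosolic and mitochondrial chaperones and matched to the array through the platform's probe-to-gene table. The list was chosen with earlier results of these data known, Hsph1 and Dnajb1 among them. Counts of called genes within it are therefore a description. All 10 were found, on 15 probes, among 17484 genes tested. The cells were Ba/F3, a mouse pro-B cell line grown in interleukin-3. Each of 2 clonal lines, kept under G418, carried a stably expressed fusion, FOXO3(A3)-ER or FOXO4(A3)-ER, introduced as a pcDNA3-HA construct. A FOXO protein is a forkhead transcription factor, and such ER fusions become active when 4-hydroxytamoxifen (4-OHT) is added. Cells of each line received 4-OHT for 2 h or 8 h, which gave 4 groups of 4 arrays, 1 for each line and time. On every array the RNA of 1 treated culture was set against the time 0 pool of the same line, with the treated RNA in Cy5 on 2 arrays of a group and in Cy3 on the other 2. The groups therefore share interleukin-3, G418 and 4-OHT, and each FOXO protein is represented by 1 clonal line. There was 1 time 0 pool per line, and no array held cells without a fusion or untreated cells cultured alongside for 2 h or 8 h. Activation of the fusion, exposure to 4-OHT itself and the handling and hours of culture cannot be told apart in these comparisons, and neither can the FOXO protein and the clone in comparisons between the lines.

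Chaperones bind unfolded protein and help it fold, and the Hsp70, Hsp90 and Hsp60 systems do so in cycles of ATP hydrolysis that co-chaperones set in motion. Heat shock factor 1 (Hsf1) is held inactive by chaperones in unstressed cells, and after heat or other protein damage it binds heat shock elements in front of chaperone genes and raises their transcription. The elements are inverted repeats of the 5-base unit NGAAN. FOXO proteins are known to act on small heat shock protein genes together with heat shock factor in Caenorhabditis elegans.

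Promoter windows were available for 7 of the 10 genes (RefSeq, GRCm38.p6, from 250 bases before to 50 bases after a transcript start, 12 windows), and 5 of them are shown because they hold the heat shock elements or, for Dnajb1, none of the searched form. Capitals mark GAANNTTC, TTCNNGAA or their overlapping runs, and each sequence is read along its gene's strand.
Hsph1 promoter, chr5:149636287-149636586, minus strand: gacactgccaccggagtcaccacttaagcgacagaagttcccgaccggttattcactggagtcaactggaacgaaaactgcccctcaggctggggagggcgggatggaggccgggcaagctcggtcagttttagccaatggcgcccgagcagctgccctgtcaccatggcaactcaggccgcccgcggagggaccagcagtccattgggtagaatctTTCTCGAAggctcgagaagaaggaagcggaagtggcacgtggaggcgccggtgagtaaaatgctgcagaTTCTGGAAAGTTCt
Chordc1 promoter, chr9:18292017-18292316, plus strand: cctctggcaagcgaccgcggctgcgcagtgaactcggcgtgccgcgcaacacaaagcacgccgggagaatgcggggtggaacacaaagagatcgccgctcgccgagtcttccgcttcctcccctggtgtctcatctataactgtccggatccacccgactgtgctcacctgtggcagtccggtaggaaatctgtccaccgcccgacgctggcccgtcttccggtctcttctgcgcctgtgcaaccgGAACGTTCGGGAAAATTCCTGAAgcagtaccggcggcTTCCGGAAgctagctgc
Hspe1 promoter, chr1:55087898-55088197, plus strand: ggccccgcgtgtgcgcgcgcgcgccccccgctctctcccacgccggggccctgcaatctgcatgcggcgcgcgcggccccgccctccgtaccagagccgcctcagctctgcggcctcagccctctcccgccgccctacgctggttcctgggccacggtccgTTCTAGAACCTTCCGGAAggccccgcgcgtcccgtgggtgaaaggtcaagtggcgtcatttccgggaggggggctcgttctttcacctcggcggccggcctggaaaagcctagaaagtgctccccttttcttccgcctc
Dnaja1 promoter, chr4:40722218-40722517, plus strand: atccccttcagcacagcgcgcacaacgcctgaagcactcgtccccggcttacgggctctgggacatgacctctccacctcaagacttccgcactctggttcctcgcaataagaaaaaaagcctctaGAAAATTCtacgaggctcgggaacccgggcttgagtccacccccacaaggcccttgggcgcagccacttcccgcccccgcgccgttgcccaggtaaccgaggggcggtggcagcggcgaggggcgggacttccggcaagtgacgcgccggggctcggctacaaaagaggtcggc
Dnajb1 promoter, chr8:83607925-83608224, plus strand: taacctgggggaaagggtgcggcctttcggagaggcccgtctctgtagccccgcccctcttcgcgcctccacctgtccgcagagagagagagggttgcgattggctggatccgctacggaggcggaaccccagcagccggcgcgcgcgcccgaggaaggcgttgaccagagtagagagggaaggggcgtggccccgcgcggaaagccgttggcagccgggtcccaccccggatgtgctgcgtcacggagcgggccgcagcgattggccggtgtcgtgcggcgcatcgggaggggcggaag

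The 3-unit element GAANNTTCNNGAA, searched on both strands (its reverse complement is TTCNNGAANNTTC), was present in the windows of 4 of the 7 genes, Hsph1, Chordc1, Hspd1 and Hspe1. It was in 5 of the 12 windows of the 7 genes, beside 0.603% of all 32851 mouse windows. In Hsph1 it began 37 bases after the start shown, and a separate TTCNNGAA lay 33 bases before it. Chordc1 had 3 overlapping copies, the first beginning 4 bases before the start, and Hspe1 had 2 overlapping copies, the first beginning 89 bases before it. Hspd1 and Hspe1, the mitochondrial Hsp60 and Hsp10 genes, lie head to head, and the copies in Hspd1 are the same bases read from the other strand. Either 2-unit form, GAANNTTC or TTCNNGAA (each its own reverse complement, and both contained in the 3-unit form), was in the windows of 5 of the 7 genes, Dnaja1 being the fifth with 1 copy 124 bases before its start. By window, either form was in 6 of the 12, beside 15.1% of all windows. Neither form stood in the windows of Dnajb1 or Ahsa1. The FOXO binding sequence GTAAACA, or TGTTTAC on the other strand, was in 0 of the 12 windows of the 7 genes and in 3.65% of all windows. A match of these letters is a description of the window and not evidence of binding.

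Values below are treated over time 0, on the log2 scale. Array values have the gene's fitted dye effect removed, and group means of 4 arrays carry the SE from limma. Adjusted p-values are limma's, with Benjamini-Hochberg adjustment over all 17484 genes. A gene is said to be higher or lower, or to have risen or fallen, where its adjusted p was under 0.05. The ratios against time 0 leave out the spread between time 0 cultures. An array measures a transcript's share of the amplified RNA, so fewer cells holding a transcript and less of it per cell cannot be told apart. Over all spots, control spots included, the arrays had a median Cy5 signal of 92.2 to 159 and a median Cy3 signal of 96.6 to 158, against backgrounds of 38 to 45. The 10 chaperone genes exceeded the 95th percentile of control spot signal in both channels of all 16 arrays. Of all gene probes, 30.4% to 42.3% exceeded that percentile in either channel of an array. The shares of all genes given below therefore include many dim genes. With the filter set at the control spots, fewer genes were tested, yet 810 in place of 758 were lower in FOXO3 at 2 h. In FOXO4 at 8 h, 1609 in place of 1530 were. Shares among genes as bright as the 10 would be higher and are not given here. Of 11 pro-B and interleukin-3 receptor markers tested, Cd79b, Csf2rb2 and Ptprc lay above that percentile at time 0 on all 16 arrays and the other 8, among them Cd79a, Vpreb1, Igll1, Pax5 and Ebf1, on 0, so that the pro-B identity rests on the labels more than on these probes. Of 8 mast cell, basophil and myeloid markers, Cpa3 lay above it on all 16 arrays, and 0 of the 8 differed from time 0 in any group. Among 5 T, NK and erythroid markers, Cd3e and Hba-a1 were higher than time 0 in FOXO3 at 8 h and Hba-a1 in FOXO4 at 8 h. Of the pro-B and interleukin-3 receptor markers, Ptprc (CD45) was higher than time 0 in all 4 groups, by 0.39 and 1.25 at 2 h and 8 h in FOXO3 and by 0.22 and 0.76 in FOXO4. Csf2rb2, a receptor subunit for interleukin-3, was lower in FOXO3 at 2 h (-0.21) and in FOXO4 at 2 h (-0.45) and 8 h (-0.46). The part of these markers in the chaperone results was not tested.

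After 2 h, 6 of the 10 chaperone transcripts were lower than time 0 in the FOXO3 line, where 4.34% of all genes were lower, and 6 of 10 were lower in the FOXO4 line, where 5.41% of all genes were. They were Dnajb1, Hsph1, Chordc1, Dnaja1, Ahsa1 and Hspa8 in both lines, and 0 of the 10 were higher. With the dye effect left in the residual, 2 calls held in FOXO3 (Dnajb1 and Hsph1) and 3 in FOXO4 (these and Dnaja1). The median over the 10 genes was -0.27 in each line, beside -0.0035 and -0.0031 over all genes. The ratios against time 0 of the 2 time points share their line's pool, so they are given side by side.

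Dnajb1 encodes a J-domain co-chaperone that hands substrates to Hsp70 and, bound with Hsp70 to Hsf1, damps the heat shock response. Its ratios were -0.73, -0.94, -0.71 and -0.48 on the 4 FOXO3 arrays at 2 h and -0.92, -0.79, -0.64 and -0.69 on the 4 FOXO4 arrays. All 8 arrays were low, and the values of the lines overlapped. The means were -0.71 ± 0.06 in FOXO3 (limma adjusted p = 8.69e-08), or 1.64-fold lower, and -0.76 ± 0.06 in FOXO4 (adjusted p = 3.38e-08), or 1.69-fold lower.

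Hsph1 encodes Hsp110, which exchanges the nucleotide of Hsp70. Its ratios were -0.63, -0.70, -0.76 and -0.60 in FOXO3 at 2 h and -0.68, -0.67, -0.38 and -0.59 in FOXO4. All 8 arrays were low here too, with the third FOXO4 array nearest to 0. The means were -0.67 ± 0.05 (limma adjusted p = 5.14e-08) and -0.58 ± 0.05 (adjusted p = 3.21e-07), which are 1.59-fold and 1.50-fold lower.

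The next group fell by less. Chordc1 encodes a zinc-binding partner of Hsp90, and its ratios were -0.23, -0.29, -0.46 and -0.32 in FOXO3 and -0.37, -0.65, -0.45 and -0.37 in FOXO4. Dnaja1, another J-domain co-chaperone of Hsp70, stood at -0.40, -0.30, -0.21 and -0.25 in FOXO3 and at -0.38, -0.80, -0.23 and -0.37 in FOXO4. Both genes were below 0 on 8 of 8 arrays, and both were lowest on the second FOXO4 array. Their FOXO3 means were -0.32 ± 0.05 for Chordc1 (limma adjusted p = 0.000275) and -0.29 ± 0.07 for Dnaja1 (adjusted p = 0.014), and their FOXO4 means were -0.46 ± 0.05 and -0.44 ± 0.07. The Dnaja1 call in FOXO3 was lost without the first array (adjusted p = 0.0999) or the second (0.0556), and under control spot centring (0.0774).

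Ahsa1 encodes Aha1, an activator of the Hsp90 ATPase. It had the smallest SE of the 10, with ratios of -0.24, -0.28, -0.23 and -0.22 in FOXO3 at 2 h and -0.20, -0.34, -0.17 and -0.23 in FOXO4. The means were -0.25 ± 0.04 (limma adjusted p = 0.000197) and -0.23 ± 0.04 (adjusted p = 0.000363), the latter lost under control spot centring (0.0611).

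Hspa8, the constitutive cytosolic Hsp70, had the largest SE of the 10, with ratios of -0.61, -0.29, 0.022 and -0.43 in FOXO3 and -0.44, -0.42, -0.29 and -0.043 in FOXO4. The third FOXO3 array and the fourth FOXO4 array were near 0. Its means were -0.33 ± 0.09 (limma adjusted p = 0.0201) and -0.30 ± 0.09 (adjusted p = 0.0351). The FOXO3 call was lost without array 1, 2 or 4 (adjusted p = 0.199, 0.0559 and 0.129), and the FOXO4 call without array 1, 2 or 3 (0.201, 0.195 and 0.0895). Control spot centring ended both calls (0.0678 and 0.143).

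The other 4 genes did not pass the test at 2 h. Hsp90aa1, the stress-inducible cytosolic Hsp90, averaged 0.10 ± 0.04 in FOXO3 and -0.11 ± 0.04 in FOXO4, and Hsp90ab1, the constitutive one, 0.06 ± 0.07 and 0.09 ± 0.07. Hspd1, the mitochondrial Hsp60, averaged -0.016 ± 0.06 and 0.09 ± 0.06, and its partner Hspe1, Hsp10, -0.13 ± 0.05 and -0.12 ± 0.05.

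**Figure D1:**
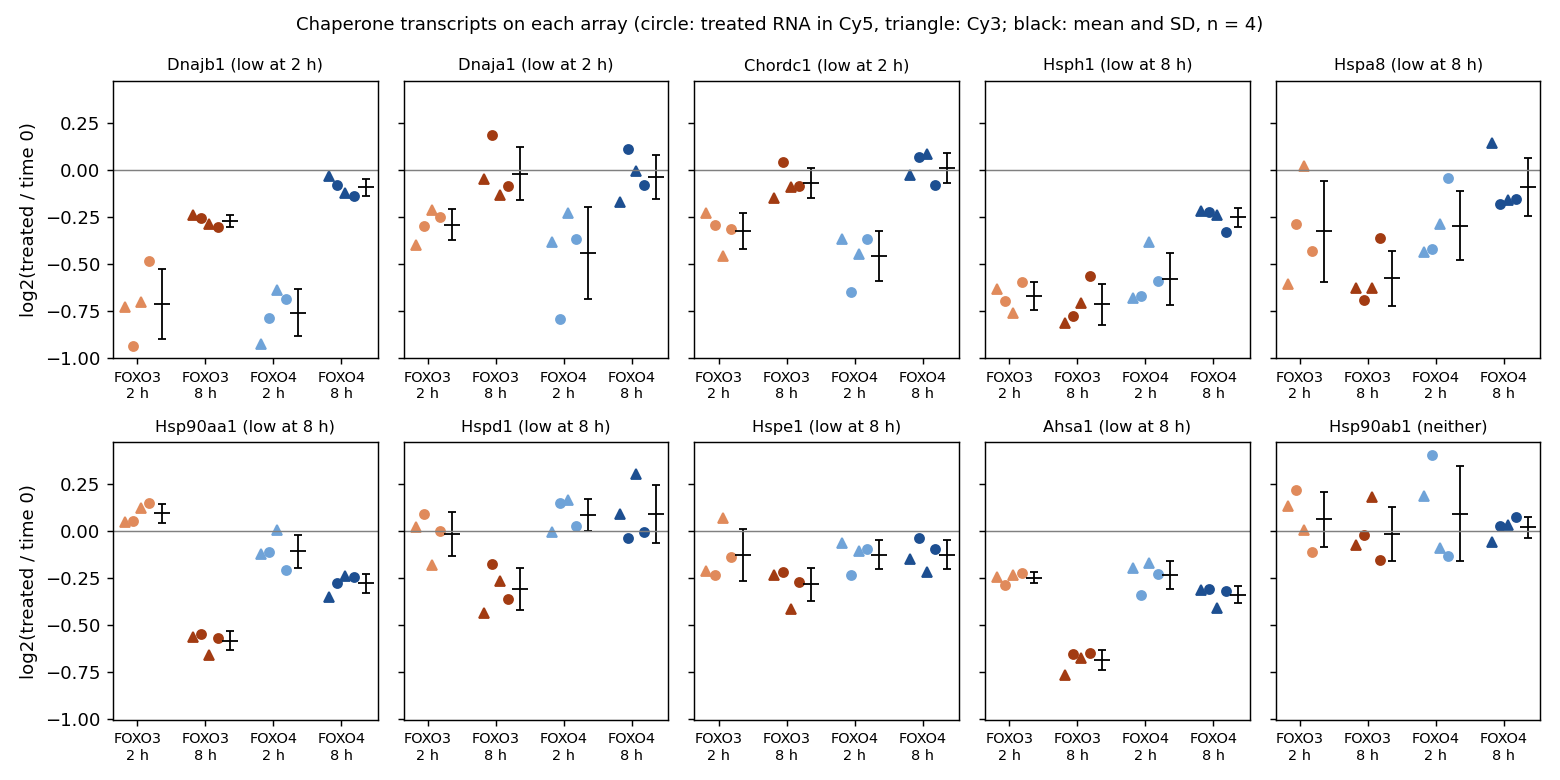
Log2 ratio of treated cells over the time 0 pool on each array (y axis, dye effect removed) for the 10 chaperone genes, by line and time (x axis), with the mean and SD of 4 arrays in black. Dnajb1 and Hsph1 lie between -0.94 and -0.38 on the 8 arrays at 2 h, and Hsp90aa1 lies between -0.66 and -0.55 on the 4 FOXO3 arrays at 8 h.

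Cirbp and Rbm3 encode RNA-binding proteins that cold is known to induce, and they were looked at after their values were seen. Cirbp lay between 1.00 and 1.24 on the FOXO3 arrays at 2 h and between 0.99 and 1.15 on the FOXO4 arrays, with means of 1.13 ± 0.04 (limma adjusted p = 1.2e-11) and 1.07 ± 0.04 (adjusted p = 1.01e-11). At 8 h it stood at 0.23 ± 0.04 and 0.20 ± 0.04, which was lower than at 2 h by 0.90 ± 0.06 in FOXO3 and by 0.88 ± 0.06 in FOXO4. Rbm3 was 0.30 ± 0.07 in FOXO3 and 0.28 ± 0.07 in FOXO4 at 2 h (adjusted p = 0.00576 and 0.00986), calls that were lost under both other centrings of the arrays, and 0.23 ± 0.07 and 0.26 ± 0.07 at 8 h, with no call for 8 h against 2 h (adjusted p = 0.708 and 0.982). The Rbm3 calls at 8 h were lost without the dye term (limma adjusted p = 0.225 and 0.217). That of FOXO3 was also lost under median centring (0.0763) and without array 2, 3 or 4 (0.155, 0.054 and 0.0644), and that of FOXO4 without array 4 (0.0534). The part of these 2 genes in the low chaperone transcripts at 2 h was not tested.

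By 8 h the FOXO3 line had 7 of the 10 transcripts below time 0, where 15.1% of all genes were lower, and the FOXO4 line had 3 of 10, where 8.75% were. The FOXO3 set was Hsph1, Ahsa1, Hsp90aa1, Hspa8, Hspd1, Hspe1 and Dnajb1, and the FOXO4 set was Ahsa1, Hsp90aa1 and Hsph1. None of the 10 was higher than time 0 in either line at 8 h by the limma fit, also at an unadjusted p under 0.05. The median over the 10 genes was -0.30 in FOXO3 and -0.09 in FOXO4, beside -0.0023 and -0.01 over all genes.

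Hsp90aa1, which had not passed the test at 2 h, had ratios of -0.56, -0.55, -0.66 and -0.57 in FOXO3 at 8 h. In FOXO4 at 8 h they were -0.35, -0.28, -0.24 and -0.25. All FOXO3 arrays lay below all FOXO4 arrays, and both below time 0. The means were -0.58 ± 0.04 in FOXO3 (limma adjusted p = 6.8e-10), or 1.50-fold lower, and -0.28 ± 0.04 in FOXO4 (adjusted p = 3.23e-05), or 1.21-fold lower. The FOXO4 call was lost when arrays were centred on the external control spots (-0.149, adjusted p = 0.158).

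Ahsa1 stood at -0.76, -0.65, -0.68 and -0.65 in FOXO3 at 8 h and at -0.31, -0.31, -0.41 and -0.32 in FOXO4. The groups did not overlap, and the FOXO3 arrays also lay below every array at 2 h. The means were -0.68 ± 0.04 (limma adjusted p = 3.5e-11) and -0.34 ± 0.04 (adjusted p = 1.65e-06).

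Hsph1 remained low in FOXO3 at 8 h, at -0.81, -0.78, -0.71 and -0.56, while FOXO4 gave -0.22, -0.22, -0.24 and -0.33. The 2 groups did not overlap. The means were -0.72 ± 0.05 (limma adjusted p = 1.28e-09) and -0.25 ± 0.05 (adjusted p = 0.0011), the latter lost under median centring (0.11) and under centring on the control spots (0.323).

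Hspa8 was at -0.63, -0.69, -0.63 and -0.36 in FOXO3 at 8 h, a mean of -0.58 ± 0.09 (limma adjusted p = 1.96e-05). In FOXO4 it was at 0.14, -0.18, -0.16 and -0.16, a mean of -0.09 ± 0.09 that did not pass the test. Its probe was saturated on 1 of the 16 arrays, the third of FOXO3 at 8 h.

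The mitochondrial pair was lower at 8 h in FOXO3. Hspd1 had ratios of -0.43, -0.17, -0.26 and -0.36 and a mean of -0.31 ± 0.06 (limma adjusted p = 0.000285), and Hspe1 had ratios of -0.23, -0.21, -0.41 and -0.27 and a mean of -0.28 ± 0.05 (adjusted p = 0.00017), the latter lost without the dye term (0.164). In FOXO4 at 8 h neither passed the test, with Hspd1 at 0.09 ± 0.06 on arrays from -0.034 to 0.31 and Hspe1 at -0.12 ± 0.05 on arrays from -0.22 to -0.037.

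Dnajb1 lay nearer to time 0 at 8 h than at 2 h. Its ratios at 8 h were -0.24, -0.25, -0.29 and -0.31 in FOXO3, a mean of -0.27 ± 0.06 that was still below time 0 (limma adjusted p = 0.000745). In FOXO4 they were -0.033, -0.082, -0.12 and -0.14, a mean of -0.09 ± 0.06 that did not pass the test. Chordc1 averaged -0.07 ± 0.05 in FOXO3 and 0.01 ± 0.05 in FOXO4, Dnaja1 -0.02 ± 0.07 and -0.04 ± 0.07, and Hsp90ab1 -0.02 ± 0.07 and 0.02 ± 0.07, none of which passed the test. Hsp90ab1 was the 1 gene of the 10 that passed in no group, with array values from -0.15 to 0.41 over all 16 arrays.

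The step from 2 h to 8 h was tested within each line. In FOXO3, 5 of the 10 genes changed (21.8% of all genes did): 3 fell, against 9.99% of all genes, and 2 rose, against 11.8%. Hsp90aa1 fell by 0.68 ± 0.06 on the log2 scale (limma adjusted p = 3.69e-08), Ahsa1 fell by 0.44 ± 0.05 (adjusted p = 3.79e-06) and Hspd1 fell by 0.29 ± 0.08 (adjusted p = 0.0131). Dnajb1 rose by 0.44 ± 0.08 (adjusted p = 0.000326) and Chordc1 by 0.25 ± 0.07 (adjusted p = 0.0148). The Hspd1 and Chordc1 calls were lost under both other centrings, Hspd1 also without FOXO3 array 1 at 8 h (0.0577) or array 2 at 2 h (0.0536), and Chordc1 without array 3 at 2 h (0.0642) or array 2 at 8 h (0.064). In FOXO4, 4 of the 10 rose and 0 fell, against 6.74% and 3.95% of all genes, with 5 of the 10 at an unadjusted limma p under 0.05. Dnajb1 rose by 0.67 ± 0.08 (adjusted p = 1.36e-05), Chordc1 by 0.47 ± 0.07 (adjusted p = 0.000189), Dnaja1 by 0.41 ± 0.10 (adjusted p = 0.0126) and Hsph1 by 0.33 ± 0.07 (adjusted p = 0.00459). For these 4 genes the FOXO4 arrays at 2 h and at 8 h did not overlap. The Dnaja1 rise was lost without FOXO4 array 2 at 8 h (adjusted p = 0.0557).

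On the FOXO3 values the genes divide into those low at 2 h, which were lower than time 0 at 2 h and lay further below it at 2 h than at 8 h (Dnajb1, Dnaja1 and Chordc1), those low at 8 h, which were lower than time 0 at 8 h and lay further below it then (Hsph1, Hspa8, Hsp90aa1, Hspd1, Hspe1 and Ahsa1), and Hsp90ab1, which was neither. The FOXO3 values made this division, so in that line it is a description. Hsph1 sits at its edge, with means of -0.67 and -0.72 that differed by 0.04 ± 0.07 and did not pass the test (adjusted p = 0.793). The FOXO3 steps from 2 h to 8 h of 3 more placed genes did not pass it either. They were -0.25 ± 0.12 for Hspa8 (limma adjusted p = 0.181), -0.16 ± 0.07 for Hspe1 (0.15) and 0.27 ± 0.10 for Dnaja1 (0.0682). The FOXO4 line was not used for the division. There all 3 genes of the low at 2 h class were lower than time 0 at 2 h and higher at 8 h than at 2 h, by the brightest probe of each gene. Among all 424 genes that the same rule puts in that class, 70.8% were lower at 2 h in FOXO4 and 44.8% were higher at 8 h than at 2 h. Of the 6 genes low at 8 h, 3 were lower than time 0 at 8 h in FOXO4, beside 51.7% of all 2499 genes of that class, and 1, Hsph1, was higher at 8 h than at 2 h, beside 0.6% of them. At 2 h in FOXO4, 3 of the 6 were already lower than time 0 (Hsph1, Hspa8 and Ahsa1), beside 16% of all genes of that class. Hsp90aa1 and Ahsa1 went from -0.11 to -0.28 and from -0.23 to -0.34 in FOXO4, steps that did not pass the test (limma adjusted p = 0.062 and 0.313).

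**Figure D2:**
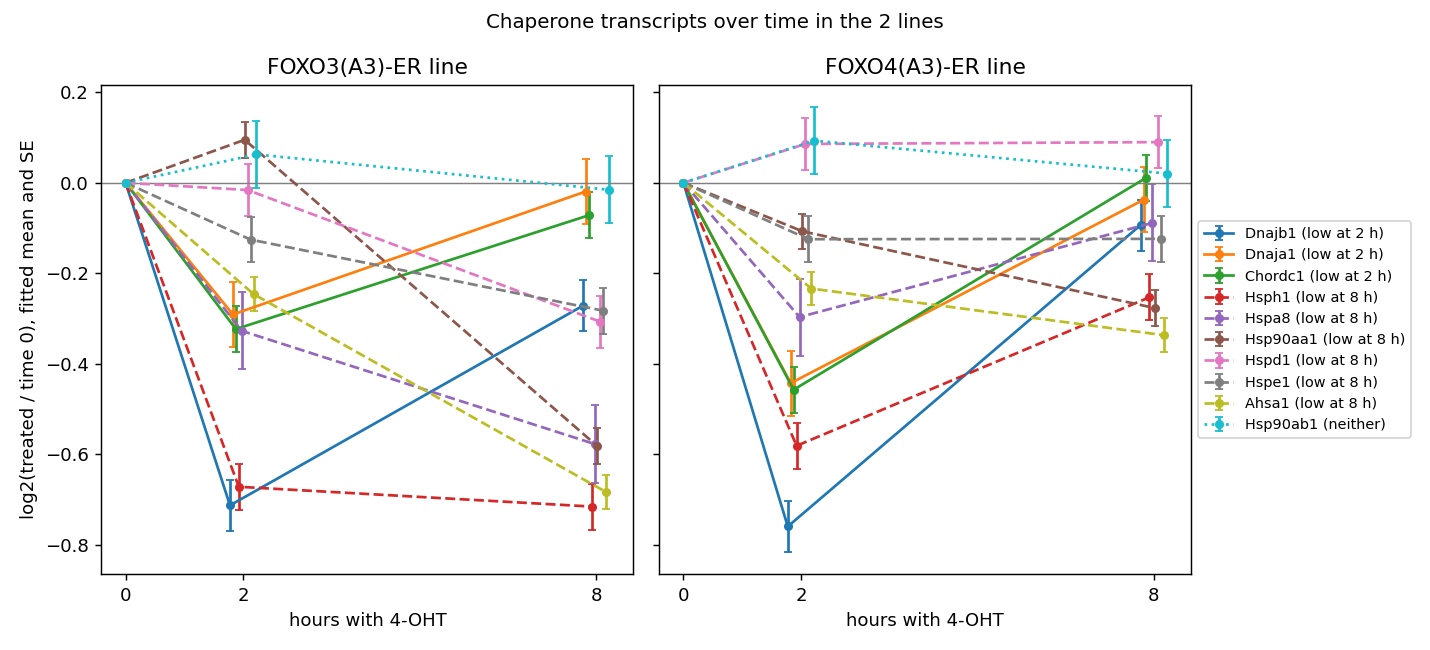
Fitted mean log2 ratio and SE (y axis) against hours with 4-OHT (x axis) in the 2 lines, n = 4 arrays per point, with time 0 at 0 by construction. Solid lines are the genes low at 2 h and dashed lines those low at 8 h in FOXO3. Dnajb1 is lowest at 2 h in both lines (-0.71 and -0.76), and Hsph1 at 8 h stands at -0.72 in FOXO3 and -0.25 in FOXO4.

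Between the lines, 0 of the 10 genes differed at 2 h by limma's adjusted p, beside 0.0343% of all genes, and 1 had an unadjusted p under 0.05. That was Hsp90aa1, 0.20 ± 0.06 higher in FOXO3 (adjusted p = 0.43). The 95% intervals of the other differences ran from -0.28 at the lowest bound, for Hspa8, to 0.37 at the highest, for Dnaja1, and for Dnajb1 from -0.12 to 0.21. At 8 h, 5 of the 10 were lower in FOXO3 than in FOXO4 and 0 were higher, beside 5.28% and 5.37% of all genes. The differences were -0.49 ± 0.12 for Hspa8 (limma adjusted p = 0.0114), -0.46 ± 0.07 for Hsph1 (adjusted p = 0.000237), -0.40 ± 0.08 for Hspd1 (adjusted p = 0.0029), -0.35 ± 0.05 for Ahsa1 (adjusted p = 2e-04) and -0.31 ± 0.06 for Hsp90aa1 (adjusted p = 0.0011). For each of the 5 genes the 4 FOXO3 arrays lay below the 4 FOXO4 arrays. The Hspa8 difference was lost without the first FOXO4 array at 8 h (-0.405, adjusted p = 0.0545). The 3 genes low at 2 h did not pass the test at 8 h, with intervals from -0.35 to -0.011 for Dnajb1, from -0.23 to 0.07 for Chordc1 and from -0.20 to 0.23 for Dnaja1.

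Whether the step from 2 h to 8 h differed between the lines was tested as an interaction. It passed for 2 of the 10 genes, both with a lower step in FOXO3, beside 1.43% of all genes in that direction. They were Hsp90aa1 (-0.51 ± 0.08, limma adjusted p = 0.00125) and Ahsa1 (-0.33 ± 0.07, adjusted p = 0.0164). Control spot centring ended both calls (adjusted p = 0.0758 and 0.261), and that of Ahsa1 also under median centring (0.15) and with the replicate number as a fixed block (0.0501). Hsph1 gave -0.37 ± 0.10 and missed the threshold (adjusted p = 0.0537). It passed with a random replicate block (0.0474), with the authors' deposited log2 values (0.0338), with the filter at the control spots (0.0315), with the mean of a gene's probes (0.0461) and without any 1 of 3 arrays, the third of FOXO3 at 2 h (0.045), the fourth of FOXO3 at 8 h (0.0273) and the third of FOXO4 at 2 h (0.0105), and over all alternatives its adjusted p reached 0.341, so the call for Hsph1 depends on the setting.

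**Figure D3:**
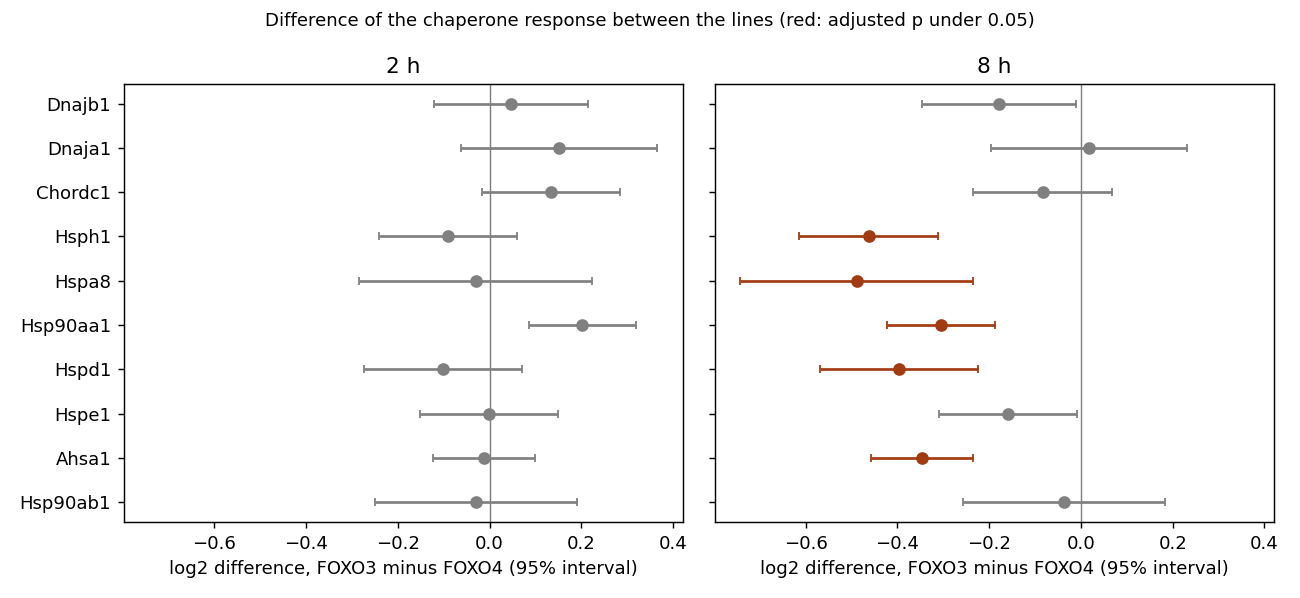
Difference of the log2 ratio between the lines, FOXO3 minus FOXO4 (x axis), at 2 h and at 8 h for the 10 chaperone genes (y axis), with 95% intervals from limma and 4 arrays per line and time. Red points have an adjusted p under 0.05. At 8 h the red points run from -0.49 for Hspa8 to -0.31 for Hsp90aa1, and at 2 h there is none.

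Among the 10 genes, 3 had over 1 probe. The brightest Dnaja1 probe is the one reported, and a second probe gave the same calls against time 0 (-0.26 ± 0.05 in FOXO3 and -0.38 ± 0.05 in FOXO4 at 2 h, -0.012 ± 0.05 and -0.07 ± 0.05 at 8 h). The dimmest Dnaja1 probe differed: it was lower at 2 h (-0.23 ± 0.06 and -0.29 ± 0.06) and also at 8 h (-0.42 ± 0.06 in FOXO3 and -0.27 ± 0.06 in FOXO4), so the place of Dnaja1 among the genes low at 2 h holds for 2 of its 3 probes. On this dimmest probe the FOXO4 step from 2 h to 8 h was 0.02 ± 0.09 and did not pass the test (limma adjusted p over all probes = 0.99). The other 2 Hspa8 probes were lower than time 0 in FOXO3 at 8 h (-0.39 ± 0.07 and -0.34 ± 0.06), did not pass the test in FOXO3 at 2 h (-0.13 ± 0.07 and -0.14 ± 0.06), and at 2 h in FOXO4 1 of them was lower (-0.22 ± 0.06) and the other was not called (-0.12 ± 0.07). Between the lines at 8 h these 2 Hspa8 probes gave smaller differences than the reported one, -0.29 ± 0.09 (adjusted p over all probes = 0.0654) and -0.27 ± 0.08 (0.0491). The second Hspe1 probe was lower in FOXO3 at 8 h (-0.23 ± 0.06). Probe sequences were not used here, so cross-hybridisation between Hsp90aa1 and Hsp90ab1, or between Hspa8 and its close relatives, is uncertain.

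Other chaperone genes were read from 4 lists. Over all genes, 3.47% rose and 4.34% fell at 2 h in FOXO3 and 3.39% and 5.41% in FOXO4, and at 8 h 15.4% rose and 15.1% fell in FOXO3 and 9.71% and 8.75% in FOXO4. Of the other heat shock factor 1 targets and cytosolic co-chaperones, 28 were tested. At 2 h, 3 rose and 1 fell in FOXO3 and 3 rose and 2 fell in FOXO4, with medians of -0.016 and 0.018. Probes of some of the 28, among them Hspb1, Hspb8, Bag3, Hspa1l and Dnaja4, fell short of the control percentile at time 0 on some or all arrays. A fall of such a gene could be missed. At 8 h, 6 rose and 14 fell in FOXO3 and 4 rose and 4 fell in FOXO4, with medians of -0.15 and -0.05. Ppid, an Hsp90-bound cyclophilin, fell furthest at 8 h, to -1.30 ± 0.08 in FOXO3 and -0.93 ± 0.08 in FOXO4. Hspa14, an Hsp70 of the ribosome, was at -0.50 ± 0.04 and -0.33 ± 0.04. Among those that rose at 8 h were the J-domain genes Dnajb6, at 0.58 ± 0.05 and 0.48 ± 0.05, and Dnajb4, at 1.10 ± 0.07 and 0.82 ± 0.07. The Dnajb4 probe too fell short of the control percentile at time 0 on some or all arrays. Hspa4l, an Hsp110 relative of Hsph1, was lower at 2 h, at -0.16 ± 0.04 in FOXO3 and -0.22 ± 0.04 in FOXO4, and higher at 8 h, at 0.39 ± 0.04 and 0.32 ± 0.04. Its calls at 2 h were lost under control spot centring (adjusted p = 0.174 and 0.0782), and the FOXO3 one also without array 1 (0.156) or 2 (0.134).

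The heat shock factors themselves had small ratios. Hsf1 stood at -0.03 ± 0.04 and -0.06 ± 0.04 at 2 h in FOXO3 and FOXO4, neither of which passed the test. At 8 h it was -0.18 ± 0.04 in FOXO3, a call lost under median centring (adjusted p = 0.0745) and under control spot centring (0.499), and -0.04 ± 0.04 in FOXO4, which did not pass. The probe of Hsf2, a second heat shock factor, fell short of the control percentile at time 0 on some or all arrays. Hsf2 was at -0.05 ± 0.05 and -0.08 ± 0.05 at 2 h, which did not pass the test. In FOXO3 at 8 h it was at -0.21 ± 0.05, which did, though not with the mean of its probes (-0.083, adjusted p = 0.0736).

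Of 15 mitochondrial chaperones and proteases, 0 rose and 2 fell at 2 h in each line, and at 8 h 3 rose and 9 fell in FOXO3 and 2 rose and 3 fell in FOXO4. Hspa9, the mitochondrial Hsp70, was at -0.58 ± 0.04 in FOXO3 and -0.23 ± 0.04 in FOXO4 at 8 h, the latter lost under both other centrings. The proteases Htra2 and Clpp were at -0.98 ± 0.05 and -0.72 ± 0.04 in FOXO3 and at -0.47 ± 0.05 and -0.36 ± 0.04 in FOXO4. Hscb, a J-domain protein of iron-sulfur cluster assembly, rose to 0.78 ± 0.06 and 0.25 ± 0.06. Beside these, Hspd1 and Hspe1 were at -0.31 and -0.28 in FOXO3 at 8 h.

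Of 14 subunits of the TRiC chaperonin and of prefoldin, which fold actin and tubulin, 13 were tested, and Pfdn4 was not analysed here. At 2 h, 1 rose and 0 fell in each line, and at 8 h 3 rose and 6 fell in FOXO3 and 3 rose and 4 fell in FOXO4. The TRiC subunits Cct3 and Cct6a fell to -0.47 ± 0.05 and -0.39 ± 0.04 in FOXO3 at 8 h, and the prefoldin subunits Vbp1 and Pfdn5 rose to 1.07 ± 0.08 and 0.51 ± 0.05.

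The endoplasmic reticulum list holds 18 genes, mostly chaperones, and also counts Xbp1 and Herpud1. These genes answer in the main to the unfolded protein response and not to heat shock factors. At 2 h, 0 rose and 5 fell in FOXO3 and 0 rose and 6 fell in FOXO4, with medians of -0.12 and -0.18. These counts of called genes were 2 in place of 6 in FOXO4 under median centring, under control spot centring and without the dye term, and 2 in place of 5 in FOXO3 without the dye term. At 8 h, 7 rose and 3 fell in FOXO3 and 6 rose and 1 fell in FOXO4, with 4 called in place of 7 in FOXO4 without the dye term or without array 1 or 3 of that group. Against 2 h, 7 and 8 genes were higher at 8 h and 0 were lower, beside 11.8% and 6.74% of all genes higher and 9.99% and 3.95% lower, and without the dye term 5 in place of 8 were called in FOXO4. Hspa5 (BiP), the Hsp70 of this compartment, was at -0.30 ± 0.06 and -0.42 ± 0.06 at 2 h and at 0.25 ± 0.06 and 0.16 ± 0.06 at 8 h, the last of which did not pass the test. Xbp1, a transcription factor of the unfolded protein response, went from -0.29 ± 0.06 to 1.24 ± 0.06 in FOXO3 and from -0.24 ± 0.06 to 0.89 ± 0.06 in FOXO4, and its calls at 2 h were lost with the mean of its probes (adjusted p = 0.181 and 0.619). Herpud1, of the degradation pathway of this compartment, was at -0.63 ± 0.04 and -0.29 ± 0.04 at 2 h. Beside these, the cytosolic Dnajb1 and Hsph1 were at -0.71 and -0.67 in FOXO3 at 2 h and at -0.27 and -0.72 at 8 h.

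**Figure D4:**
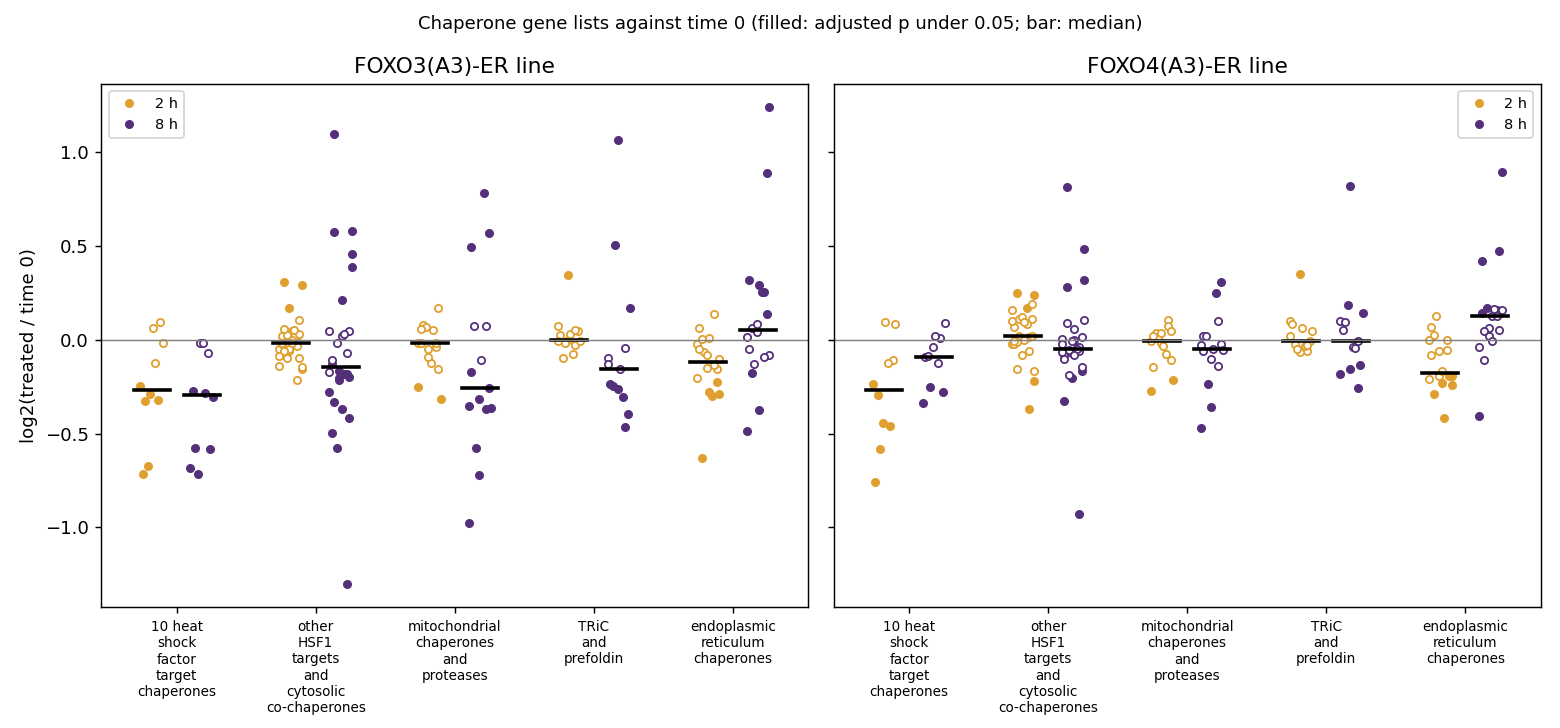
Log2 ratio against time 0 (y axis) of the 10 chaperone genes and of the tested genes of 4 other chaperone lists (x axis) at 2 h (orange) and 8 h (purple) in the 2 lines. Each point is a gene's fitted mean of 4 arrays, filled where the adjusted p was under 0.05, and bars are medians. In FOXO3 the medians at 2 h and 8 h were -0.27 and -0.30 for the 10 genes and -0.12 and 0.05 for the endoplasmic reticulum list.

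For the genes with the smallest adjusted p of 8 h against 2 h in FOXO3 in each direction, the most similar profiles over the 16 arrays were looked up among 5379 bright genes. Closest to Dnajb1 were Tbca, a tubulin-folding cofactor (Pearson r = 0.958), Mmd (0.958) and Tnfrsf12a, the receptor of the cytokine TWEAK (0.957). They share its shape over the arrays but not always its level. In FOXO3 at 2 h and 8 h, Mmd stood at 0.38 and 0.95 and Tbca at -0.03 and 0.24. Tnfrsf12a stood nearer, at -0.63 and -0.41 beside -0.71 and -0.27 for Dnajb1. Closest to Hsp90aa1 were Bid, a pro-apoptotic Bcl-2 family gene (r = 0.963), Xrcc6, the Ku70 gene (0.959), and Idi1, of isoprenoid synthesis (0.958), which stood at -0.65, -0.92 and -0.53 in FOXO3 at 8 h. The points are arrays of 4 groups that share 2 time 0 pools, so these correlations are a description.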

How the data were processed

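Total RNA was copied into aminoallyl cRNA by T7 amplification together with external control RNA, and coupled to Cy3 or Cy5, per the labels' protocols. The deposited scanner files hold spot intensities with local background, per the file headers. The authors also deposited normalized intensities and log2 values, made by a method not given in the sources used here. Those log2 values matched log2(treated / time 0) of the deposited normalized intensities to within 5e-06 and had array medians of -0.0124 to 0.0108. Channel 1 was read as Cy5, being closer to the deposited Cy5 values on 16 of 16 arrays.

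From the scanner intensities, background was corrected by normexp (offset 50) and ratios by loess within arrays, with the 3223 control spots of 34992 at weight 0. Probes above local background by 2 SDs, in either channel of 4 arrays or more, were kept, which dropped 942 of 31769. The annotation gave 1 symbol to 26000 probes, several to 0 and none to 5769. Symbols were updated through RefSeq (15860 current, 1981 updated, 47 kept), and the brightest probe stood for a gene. All 16 arrays entered 1 limma 3.58.1 fit (R 4.3.3) with a mean for each of the 4 groups and a dye term for each gene. The 9 comparisons used a threshold of 0.05 on the Benjamini-Hochberg adjusted p. The number of arrays limits the precision, with a median SE of 0.0501 for a group and 0.0709 for a difference. The design calls the replicates independent without naming their source. Named list genes were up to 4 of smallest adjusted p per list and time in FOXO3, plus Hsf1 and Hsf2. Lists and the 10 genes were chosen with earlier results of these data known. The fit was checked on simulated data. Alternatives changed the background correction, normalization, centring, filter, probe rule, dye term, replicate block, the arrays fitted and each array in turn. Figures were drawn with matplotlib 3.10.9.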

Additional observations from a re-analysis of the deposited data

Results flagged for a closer look

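Of 40 sets of 4 arrays (10 genes in 4 groups), 2 held an array far from the other 3, and chance gives about 1 in 20. Hspa8 was at 0.142 on the first FOXO4 array at 8 h, against -0.182 to -0.156 on the others. Ahsa1 was at -0.407 on the third FOXO4 array at 8 h, against -0.319 to -0.308 on the others.

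At 8 h the response differed between the lines, by limma's test of the difference, for Hsph1 (-0.463, FOXO3 minus FOXO4), Hspa8 (-0.489), Hsp90aa1 (-0.305), Hspd1 (-0.397) and Ahsa1 (-0.347). The step from 2 h to 8 h differed for Hsp90aa1 (-0.508) and Ahsa1 (-0.335). Each line is 1 clone with 1 time 0 pool, so the clone, its pool and the FOXO protein cannot be told apart.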

How the results depend on the processing

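No gene of the 10 reversed a called direction under the alternatives tried: of 2360 values, 2292 stayed on their side of the threshold, 46 lost the call and 22 gained one, and 65 uncalled values changed sign. The count of called genes among the 10 moved most without the dye term: from 6 to 2 in FOXO3 and from 6 to 3 in FOXO4 at 2 h, from 5 to 3 and from 4 to 2 for 8 h against 2 h, from 5 to 3 between the lines at 8 h, and from 2 to 0 for the interaction. That alternative leaves the dye effect in the residual, by its construction. Control spot centring gave 1 in place of 3 in FOXO4 at 8 h, 3 in place of 5 for FOXO3 8 h against 2 h and 0 for the interaction. Median centring gave 3 for FOXO3 8 h against 2 h and 1 for the interaction. The mean of a gene's probes gave 4 and a fixed replicate block gave 1 for the interaction; for all of these the cause was not tested. Whether same-numbered arrays of a line share a culture or day is not given. Their deviations from the group means correlated from -0.39 to 0.168. The replicate block otherwise left every count of the 10 within 1.5 times, and as a random block its consensus correlation was 0.0297.

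Leaving out each array in turn gave 4 to 7 genes for FOXO3 and 5 to 6 for FOXO4 at 2 h, 7 to 7 and 3 to 3 at 8 h, 4 to 6 and 3 to 5 for 8 h against 2 h, 0 to 0 and 4 to 5 between the lines at 2 h and 8 h, and 2 to 3 for the interaction. Over all genes, calls without the dye term, and with control spot centring where it moved them by over 1.5 times, were 466 and 781 in place of 1364 in FOXO3 at 2 h, 480 and 709 in place of 1538 in FOXO4 at 2 h (1009 under median centring), 3392 in place of 5329 and 1608 in place of 3227 at 8 h, 2037 in place of 3804 for FOXO3 8 h against 2 h, 601 and 1191 in place of 1869 for FOXO4, 557 and 1145 in place of 1862 between the lines at 8 h, and 69 and 83 in place of 578 for the interaction (178 under median centring). Between the lines at 2 h, 6 genes became 2, 0 and 2 under no dye term, control spot and median centring, 10 with the deposited log2 values and 2 with a fixed block. Lower calls were 1918 of 4891 for FOXO3 at 8 h under control spot centring (2641 of 5329 in the reported setting), 517 of 2696 for FOXO4 at 8 h (968 of 2631 under median centring, 1530 of 3227 reported), 137 of 1191 for FOXO4 8 h against 2 h (257 of 1258 under median centring, 690 of 1869 reported), 26 of 83 for the interaction (20 of 69 without the dye term, 250 of 578 reported), and 932 of 1477 between the lines at 8 h under median centring (923 of 1862 reported). The 4 other chaperone lists moved too: called genes against time 0 without the dye term were 1 in place of 4 and 1 in place of 5 at 2 h and 12 in place of 20 and 5 in place of 8 at 8 h, in FOXO3 and FOXO4, for the other heat shock factor 1 targets, and 2 in place of 7 at 8 h in FOXO4 for TRiC and prefoldin.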
